A study of Mus musculus with 2 samples.

Results

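Branched-chain amino acid breakdown was examined through 10 genes of the enzymes that remove leucine, isoleucine and valine. The genes were Bcat1, Bcat2, Bckdha, Bckdhb, Dbt, Bckdk, Ivd, Mccc1, Pcca and Pccb. They were chosen by name from the pathway, with earlier results of these data known, and found by Ensembl identifier. All 10 were among the 35275 genes of the count table. RNAseq compared untreated control AML12 cells, a mouse hepatocyte line that carries a transgene for human transforming growth factor alpha and that the labels describe as liver of a male CD-1 mouse aged 3 months, with AML12 cells in which repeated hydrogen peroxide (H2O2) had induced senescence. Exposures lasted 1 h and were repeated daily for 6 days, starting at 1 mM and continuing at 0.75 mM, and cells recovered for 23 h in between. The complete medium of both groups held dexamethasone and an insulin supplement. RNA of 3 samples per group was pooled into 1 library, so there were no replicates, no p-value was computed, and every difference is between 2 libraries.

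Breakdown of these amino acids starts with the branched-chain aminotransferases, Bcat1 in the cytosol and Bcat2 in mitochondria, which pass the amino group to 2-oxoglutarate. The branched-chain 2-oxoacid dehydrogenase complex (BCKDH) then removes a carboxyl group irreversibly, and it is switched off by its kinase Bckdk. After that step the leucine arm runs through isovaleryl-CoA dehydrogenase (Ivd) and methylcrotonyl-CoA carboxylase to acetyl-CoA and acetoacetate. Valine and the rest of isoleucine leave as propionyl-CoA, which propionyl-CoA carboxylase carries toward the tricarboxylic acid cycle. In the liver of the living animal, hepatocytes are known for high BCKDH activity and little transaminase, so that the oxoacids largely reach them from muscle.

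Reads of 28021941 and 25738075 were counted in the control and senescent libraries. They were scaled by edgeR's TMM method, and each log2 ratio of senescent over control carries a 95% Clopper-Pearson interval that covers counting error only. With at least 10 reads over both libraries, 14383 genes were tested, and their median log2 ratio was -0.02. Among 12 hepatocyte markers, 11 were tested, of which 5 had an interval above 0 and 4 below, and their summed level was 8541 and 10196 scaled CPM (reads scaled to a common library size) in control and senescent cells. The keratins Krt8 and Krt18 carried most of that sum, and without them the other 10 markers summed to 3042 and 1901 CPM. Albumin (Alb) was at a log2 ratio of -3.23, Apoa1 at -3.13, Serpina1a at -1.42 and Ttr at -0.91, while the transcription factor gene Hnf4a was at 0.14. Summed CPM of markers of other cells were 0.722 and 0.242 for 7 fibroblast genes, with Col1a2, Col3a1, Lum and Thy1 at 0 in both libraries and Col1a1 at 21 control reads and 1 senescent read. They were 0.206 and 0.524 for 5 endothelial genes, and 0.206 and 0.645 for 5 stellate cell genes, with Acta2 at 0 in both and Reln at 0 control and 12 senescent reads. The 7 macrophage genes summed to 194 and 82.1 CPM, nearly all of it from Cd14, with the defining genes Adgre1 and Clec4f at 0 in both. Over the 4 macrophage genes tested the median log2 ratio was 1.01, with Ptprc at 27 and 76 reads (1.68, 1.07 to 2.41) and Csf1r at 15 and 40 reads (1.58, 0.76 to 2.61). The 5 cholangiocyte genes summed to 1897 and 1421 CPM. Krt19 had 22885 control and 19177 senescent reads (log2 ratio -0.03) and Spp1 25430 and 10580 (-1.04). Sox9 had 3602 and 4454 (0.54) and Krt7 3248 and 1026 (-1.43). Epcam had 0 control reads and 1 senescent read. Among 10 proliferation genes the median log2 ratio was -0.20. Of 6 senescence genes, 3 had intervals above 0 and 2 below, with the cell cycle inhibitor Cdkn1a at 0.90 (0.86 to 0.95) and Cdkn2a at 437 and 149 reads, a log2 ratio of -1.32 (-1.60 to -1.05). By RT-qPCR the paper reported higher Trp53, Cdkn1a and Cdkn2a mRNA in senescent cells. The libraries were told apart by the initials of their column names. In the library labelled senescent, Cdkn2a and Lmnb1 (-0.30) were lower, and Cdkn1a, Cdkn2b (0.46) and Trp53 (0.26) were higher. The part of these differences in the values below was not tested, and in pooled RNA fewer cells of a type and less RNA per cell cannot be told apart.

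The upstream sequences of 4 members are shown because their genes mark the ends of the pattern described below. Ivd, Pcca and Pccb had the lowest log2 ratios of the members tested, and Bcat2 was almost without reads. Each is the 200 bases from 250 to 51 before the RefSeq start site in GRCm38.p6, 5′ to 3′ on the gene's own strand. Capitals mark matches, on either strand, to the GC box GGGCGG, the CCAAT box (printed ATTGG where it lies on the opposite strand), the ETS motif CCGGAAGT, the NRF1 palindrome, the E-box CACGTG, the ERR motif TCAAGGTCA, the cAMP element TGACGTCA or the TATA box TATAAA.
Ivd, chr2:118861744-118861943, plus strand: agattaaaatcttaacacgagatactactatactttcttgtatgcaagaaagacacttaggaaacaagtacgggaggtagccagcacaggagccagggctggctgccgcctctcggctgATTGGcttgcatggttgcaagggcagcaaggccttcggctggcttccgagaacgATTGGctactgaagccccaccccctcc
Pcca, chr14:122534078-122534277, plus strand: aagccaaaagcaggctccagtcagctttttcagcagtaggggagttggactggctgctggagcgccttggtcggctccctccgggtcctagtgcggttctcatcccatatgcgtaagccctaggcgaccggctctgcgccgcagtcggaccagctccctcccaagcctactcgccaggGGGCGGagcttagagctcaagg
Pccb, chr9:101034935-101035134, minus strand: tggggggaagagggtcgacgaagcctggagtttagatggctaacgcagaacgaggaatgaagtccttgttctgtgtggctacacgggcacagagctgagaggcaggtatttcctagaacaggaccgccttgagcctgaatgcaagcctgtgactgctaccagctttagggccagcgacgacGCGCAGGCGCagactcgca
Bcat2, chr7:45569903-45570102, plus strand: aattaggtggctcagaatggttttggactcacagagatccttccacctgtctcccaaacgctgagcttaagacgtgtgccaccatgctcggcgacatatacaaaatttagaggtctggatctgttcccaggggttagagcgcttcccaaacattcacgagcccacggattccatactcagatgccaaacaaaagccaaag
The Ivd stretch held 2 CCAAT boxes, which 28.4% of 32851 such stretches upstream of mouse genes hold at least once. The Pcca stretch held 1 GC box, a motif found in 24.6% of them, and the Pccb stretch 1 NRF1 match, found in 2.24%. No motif searched was shared by the 3 genes, and the Bcat2 stretch held none of them. CG pairs numbered 7 for Ivd, 12 each for Pcca and Pccb and 7 for Bcat2, against a median of 4 over all stretches. RefSeq gives Pcca and Bcat2 a further start site each, and none of the motifs searched was in those stretches, so the ones shown are those next to the GENCODE gene start. Of the 10 members, 9 had an entry in the RefSeq table used.

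The transaminases that start the pathway had almost no reads. Bcat1 (ENSMUSG00000030268, chr6:144993835-145076184, GENCODE M21 on GRCm38) had no read in either library (0 and 0). Bcat2 (ENSMUSG00000030826, chr7:45570153-45589711) had 5 control reads and 1 senescent read. Bcat1 was thus not detectable at this depth in either library, and a level of up to 3 reads, or 0.103 CPM in the control and 0.121 CPM in the senescent library, cannot be told from 0. The log2 ratio of Bcat2 was -1.43 with an interval from -7.66 to 1.07, so no difference between the libraries could be read from it. These were the 2 members with fewer than 10 reads. Exons of both genes overlap an antisense gene on the opposite strand, and since the use of strand in the counting is not given in the sources used here, reads there could have been assigned to either gene or to neither.

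Other aminotransferases had reads in the same libraries, at very uneven levels. Of 8 such genes listed, all were tested, with a median log2 ratio of -0.09. Got2, the mitochondrial aspartate aminotransferase, had 5655 control and 4107 senescent reads, and Psat1, of serine synthesis, had 16481 and 14779. Tat, in contrast, had only 15 and 17 reads (these genes were named after their values were seen). Only Aadat, which acts on aminoadipate and kynurenine, passed 1.5 on the log2 scale, with 30 and 5 reads and a log2 ratio of -2.16.

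The remaining 8 members were tested, and all 8 had log2 ratios below 0, from -1.33 to -0.02, with a median of -0.66. Below 0 lay 51.1% of all genes tested. No member passed the study's threshold of 1.5 on the log2 scale in either direction, which 2.71% of all tested genes passed upward and 5.60% downward with an interval without 0. With a threshold of 1, 3 members (Ivd, Pcca and Pccb) were lower, where 9.98% of tested genes were lower and 5.09% higher. Counted by the interval alone, 7 of the 8 were lower and 0 higher, against 34.6% and 34.0% of all tested genes. A coefficient of variation of 0.1 was then assumed for each library as a whole, with no allowance for the pooling of 3 samples. With the intervals widened for it, 5 of the 8 still lay below 0 (Bckdhb, Ivd, Mccc1, Pcca and Pccb), against 21.3% of all tested genes. At 0.4 it was 0 of 8, against 575 of the 14383 tested genes, and 0 of 8 lay above 0.

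**Figure D1:**
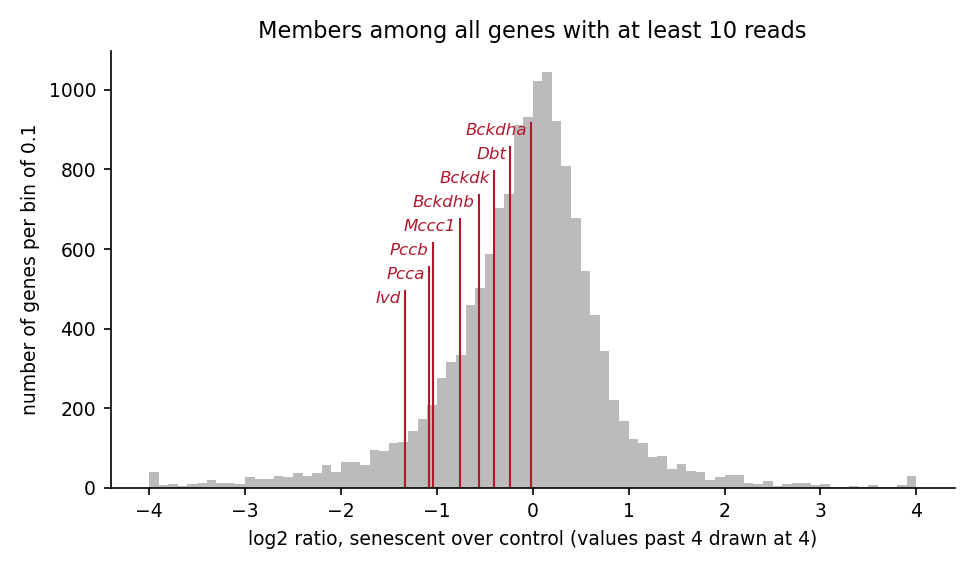
Number of genes (vertical axis) by log2 ratio of senescent over control in bins of 0.1 (horizontal axis), for all 14383 genes tested, with red lines at the 8 members tested. Values past 4 in either direction are drawn at 4. All 8 lines stand left of 0, from Ivd at -1.33 to Bckdha at -0.02.

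BCKDH is built from the E1 subunits alpha (Bckdha) and beta (Bckdhb), the E2 core Dbt and the shared E3 subunit Dld. E1 alpha and Dld were close to level between the libraries, while E1 beta and the E2 core were lower. Bckdha (ENSMUSG00000060376, chr7:25629946-25658981) had 2400 control and 2022 senescent reads, 82.5 and 81.5 CPM after scaling. Its log2 ratio was -0.02 (95% interval -0.10 to 0.07), at 49.9% in the ranking of all tested genes from the lowest ratio. Scaling by total counts moved it to -0.12 (-0.21 to -0.04), the only member whose interval then crossed to a call.

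Bckdhb (ENSMUSG00000032263, chr9:83925145-84124240) had 458 control and 264 senescent reads, the fewest of the 8. Its log2 ratio was -0.56 (-0.79 to -0.34), 67.7% of the control level. Dbt, the E2 core that carries the acyl group on lipoic acid (ENSMUSG00000000340, chr3:116513070-116549981), lay between the E1 genes, with 1194 and 866 reads and a log2 ratio of -0.23 (-0.36 to -0.11). Dld, which also serves the pyruvate and 2-oxoglutarate dehydrogenases, had 3188 and 2739 reads, with a log2 ratio of 0.01 (-0.06 to 0.08).

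Between these 2 libraries the subunits of BCKDH differed by unlike amounts, judged by counting error only. With a coefficient of variation of 0.1 assumed, Bckdhb was the only subunit gene whose interval stayed below 0. The intervals of the ratios that follow leave out variation between cultures, which could not be measured. Within a library the ratio of 2 genes does not depend on scaling between libraries. Per length, Bckdha was 4.08 times Bckdhb in the control library and 5.96 times in the senescent library. The change of that ratio was 0.55 on the log2 scale (0.31 to 0.78). The ratio of Dbt to Bckdhb changed by 0.33 (0.08 to 0.58) and that of Bckdha to Dbt by 0.22 (0.06 to 0.37). In exons, 1171 of the 1899 bases of Bckdha overlap B3gnt8 on the opposite strand, which had 0 reads in both libraries, so reads there may have been left out and the level of Bckdha may be understated in both.

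Control of the complex lies with a kinase, Bckdk, which phosphorylates and silences E1 alpha, and a phosphatase, Ppm1k, which restores it. Bckdk (ENSMUSG00000030802, chr7:127904082-127910221) had 1784 control reads against 1151 senescent reads, and the log2 ratio was -0.40 (-0.51 to -0.29). Ppm1k had 113 and 69 reads, with a log2 ratio of -0.48 (-0.94 to -0.04). Kinase and phosphatase were both lower by counting error alone. With a coefficient of variation of 0.1 assumed, the interval of neither stayed below 0. Their ratio changed by 0.08 (-0.37 to 0.52), an interval wide enough to hold a sizeable shift in either direction. Bckdk was at 0.415 times its substrate gene Bckdha per length in the control library and 0.317 times in the senescent library. That was a change of -0.38 (-0.52 to -0.25), again with counting error only. The longest transcript of Bckdk holds a stretch of up to 173 bases that matches transcripts of 68 other genes at 95% identity or more, so a part of its reads is uncertain. Among these genes are the member Ivd, over 124 bases, and Slc3a2, over 165 bases, so a part of their reads may be uncertain too.

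The kinases of the related pyruvate dehydrogenase complex differed more than Bckdk. Pdk1 had 1628 control reads against 162 senescent reads, and the log2 ratio was -3.09 (-3.34 to -2.87), and Pdk4 was at -2.74 (-3.41 to -2.20). Over 12 genes of the pyruvate and 2-oxoglutarate dehydrogenases, their kinases and phosphatases, the median log2 ratio was -0.13. Of the 12, 2 passed 1.5 downward, against 5.60% of all tested genes, and none passed it upward, against 2.71%.

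In the leucine arm, Ivd oxidizes isovaleryl-CoA and hands the electrons to the electron transfer flavoprotein. Ivd (ENSMUSG00000027332, chr2:118861954-118882909) was counted at 1628 reads in control and 550 in senescent cells, 56.0 and 22.2 CPM. This was the lowest log2 ratio of the members tested, -1.33 (-1.48 to -1.20), or 39.7% of the control level, and 7.11% of all tested genes lay below it. Under the scalings tried, Ivd stayed short of 1.5, reaching -1.44 with total counts.

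The next enzyme, methylcrotonyl-CoA carboxylase, is a biotin enzyme of an alpha subunit (Mccc1) and a beta subunit (Mccc2). Mccc1 (ENSMUSG00000027709, chr3:35959312-36000678) had 855 control reads against 430 senescent reads, and the log2 ratio was -0.76 (-0.93 to -0.59). Its partner Mccc2 had 869 and 462 reads and a log2 ratio of -0.68 (-0.85 to -0.52). The ratio of Mccc1 to Mccc2 changed by -0.08 (-0.31 to 0.15), a difference within counting error. Exons of Mccc1 overlap the opposite-strand genes Mccc1os and Gm15952, which had 28 and 20 control reads and 11 and 10 senescent reads. Ivd changed more than Mccc1, by -0.57 (-0.79 to -0.36). Auh, the hydratase that acts next in the arm, was nearer to level, at -0.30.

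Propionyl-CoA carboxylase consists of a biotin-carrying alpha subunit (Pcca) and a beta subunit (Pccb). Pcca (ENSMUSG00000041650, chr14:122534324-122891100) had 1357 control and 546 senescent reads. Its log2 ratio was -1.08 (-1.23 to -0.94), 47.2% of the control level. Pccb (ENSMUSG00000032527, chr9:100982032-101034898) had 1619 and 670 reads and a log2 ratio of -1.04 (-1.18 to -0.91), or 48.6%. The ratio of Pcca to Pccb changed by -0.04 (-0.23 to 0.15), which was within counting error. Exons of Pcca share 241 bases with Ggact on the opposite strand, which had 587 and 413 reads.

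The steps after the carboxylase were lower by a like amount. Mcee, the methylmalonyl-CoA epimerase, had 753 and 296 reads and a log2 ratio of -1.12 (-1.32 to -0.92). Mut, the mutase that makes succinyl-CoA with vitamin B12, had 2348 and 1043 reads and a log2 ratio of -0.94 (-1.05 to -0.84). All 4 genes of this arm had intervals below 0, against 34.6% of all tested genes, with a median log2 ratio of -1.06. Mmab, which prepares the cobalamin cofactor of the mutase, was at -1.24 (-1.45 to -1.04), while the cobalamin genes Mmaa and Mmadhc were at -0.29 and -0.08.

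The other biotin enzymes lay closer to 0. The 3 further biotin carboxylase genes, Pcx, Acaca and Acacb, had log2 ratios of -0.48, -0.26 and -0.17 (named after their values were seen), with 2 intervals below 0. Acacb had only 12 control and 9 senescent reads, and its interval, from -1.61 to 1.19, was too wide to place it. Hlcs, the ligase that attaches biotin to all of these enzymes, was at -0.11 (-0.29 to 0.08). Btd, which recycles biotin, was at -0.62 (-0.85 to -0.39).

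**Figure D2:**
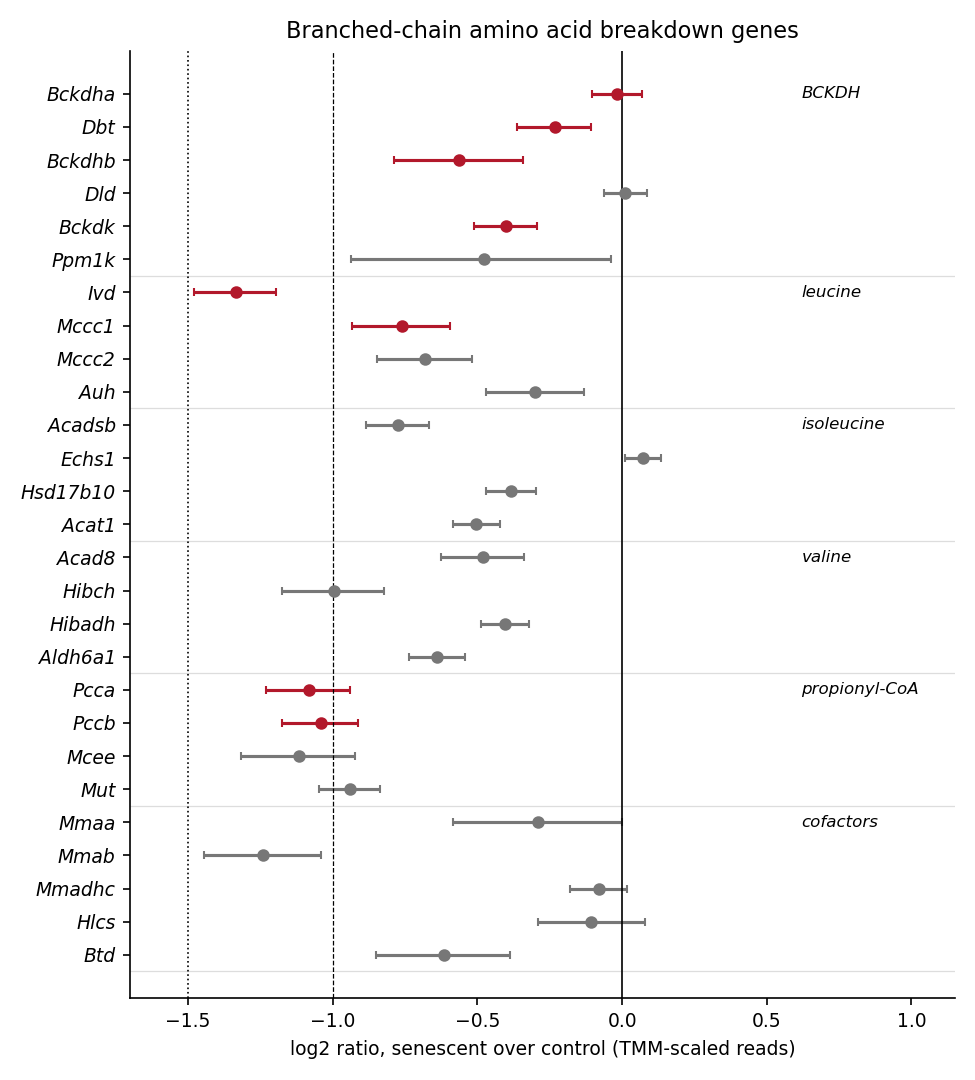
Log2 ratio of senescent over control (horizontal axis) for the 8 members tested (red) and 19 other genes of the pathway (grey), grouped by step, with bars for the 95% counting interval. Dashed and dotted lines stand at -1 and -1.5. The propionyl-CoA genes lie between -1.12 and -0.94, while Bckdha and Dld lie at 0 within their intervals.

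Of 20 other genes of the pathway listed, 19 had at least 10 reads. Their median log2 ratio was -0.48, with 15 intervals below 0 and 1 above, against 34.6% and 34.0% of all tested genes. None passed 1.5. Below -1 were 2 of the 19, Mcee and Mmab, a share near the 9.98% of all tested genes. The count below -1 was 3 with upper-quartile or DESeq2 scaling, with Hibch added. It was 4 with total counts, with Mut added as well. In the isoleucine arm, the dehydrogenase Acadsb was at -0.77 (-0.88 to -0.67), the thiolase Acat1 at -0.50 and Hsd17b10 at -0.38. Echs1, a hydratase shared with fatty acid oxidation, was the gene with an interval above 0, at 0.07 (0.01 to 0.14), and total-count scaling turned it to -0.03. In the valine arm, all 4 genes tested were lower, from Hibch, a hydrolase at 50.1% of its control level, to Hibadh at a log2 ratio of -0.40. The valine dehydrogenase Acad8 was at -0.48 and Aldh6a1, which yields propionyl-CoA, at -0.64. Abat had 5 and 2 reads and was not tested.

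The 3 branched-chain acyl-CoA dehydrogenases could be compared directly. Ivd was 1.29 times Acadsb and 1.21 times Acad8 per length in the control library. In the senescent library it was 0.877 times Acadsb and 0.671 times Acad8. The leucine enzyme thus went from the highest to the lowest of the 3 (with exon-union lengths it was 1.02 times Acadsb in the control library), with changes of -0.56 (-0.74 to -0.38) against Acadsb and -0.85 (-1.05 to -0.65) against Acad8.

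A listed set of 12 further acyl-CoA dehydrogenases and electron transfer genes had a median log2 ratio of -0.67, and none passed 1.5. Of the 12, 10 had intervals below 0, against 34.6% of all tested genes, and 4 were below -1, against 9.98%. The 12 included both subunits of the flavoprotein that takes the electrons of Ivd, Etfa at -0.51 and Etfb at -1.04, and its oxidoreductase Etfdh at -1.20. Acads was level, at -0.03 (-0.11 to 0.06). These 4 genes were named after their values were seen.

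Members of the later steps were also set against the E1 subunits of BCKDH within each library. Bckdha was the member nearest to 0, so ratios to it stay close to the members' own log2 ratios. Ivd went from 0.351 to 0.141 times Bckdha per length, a change of -1.32 (-1.48 to -1.15). Pcca changed by -1.07 (-1.23 to -0.90), Pccb by -1.03 (-1.18 to -0.87) and Mccc1 by -0.74 (-0.93 to -0.56). Against Bckdhb, a reference added after the values were seen, the changes were smaller, -0.77 (-1.03 to -0.51) for Ivd, -0.52 (-0.78 to -0.26) for Pcca and -0.48 (-0.73 to -0.22) for Pccb. That of Mccc1 to Bckdhb, -0.20 (-0.47 to 0.08), was within counting error. Echs1, a later enzyme outside the members, changed by 0.09 (-0.02 to 0.20) against Bckdha.

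**Figure D3:**
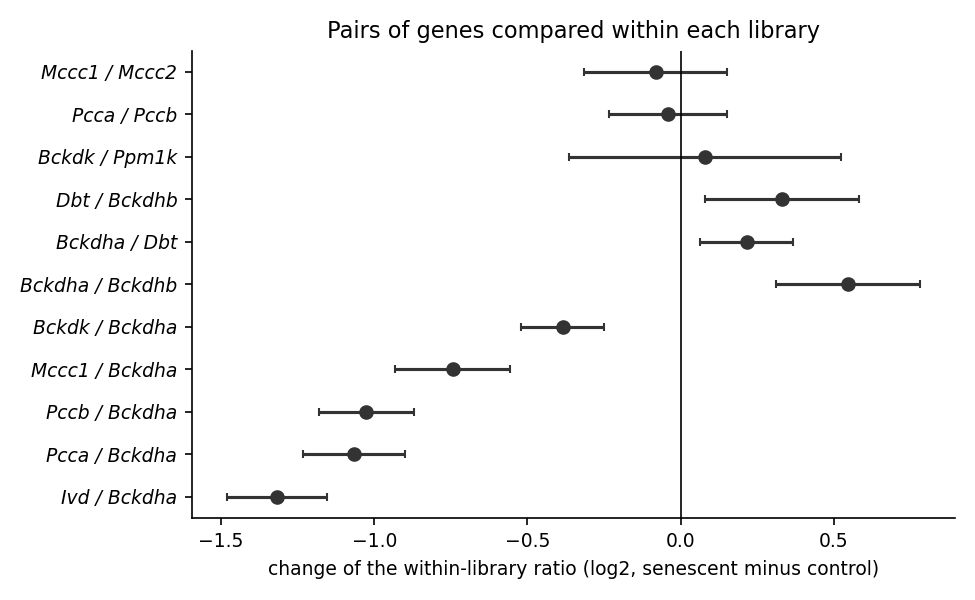
Change from the control to the senescent library of the ratio between 2 genes within a library (horizontal axis, log2), for 11 pairs, with bars for the 95% counting interval. The pairs of Mccc1 with Mccc2, Pcca with Pccb and Bckdk with Ppm1k span 0, and the 4 later enzymes against Bckdha lie from -1.32 to -0.74.

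Levels per transcript length, in TPM (reads per length, scaled to a common sum) computed on the longest protein-coding transcript, ordered the members within each library. In the control library Bckdha was highest at 98.8 TPM, then Pccb at 54.5. Bckdk and Pcca, both at 40.9, overlapped in their intervals, and Ivd followed at 34.7. Dbt at 28.3, Mccc1 at 27.2 and Bckdhb at 24.2 formed the lower end, where Mccc1 overlapped in its interval with each of the others.

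In the senescent library Bckdha was again highest, at 93.7 TPM, then Bckdk at 29.7. Pccb at 25.4 and Dbt at 23.1 overlapped in their intervals. Pcca followed at 18.5 and overlapped with Bckdhb at 15.7, which overlapped with Mccc1 at 15.4. Ivd was lowest of the 8 at 13.2, with an interval that overlapped those of Bckdhb and Mccc1. Bcat2 stood at 0.188 and 0.0423 TPM, and Bcat1 at 0. The order depends on the transcript chosen, most of all for Mccc1, whose control level was 8.80 TPM over the union of all its exons, which include long intron-retaining transcripts.

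**Figure D4:**
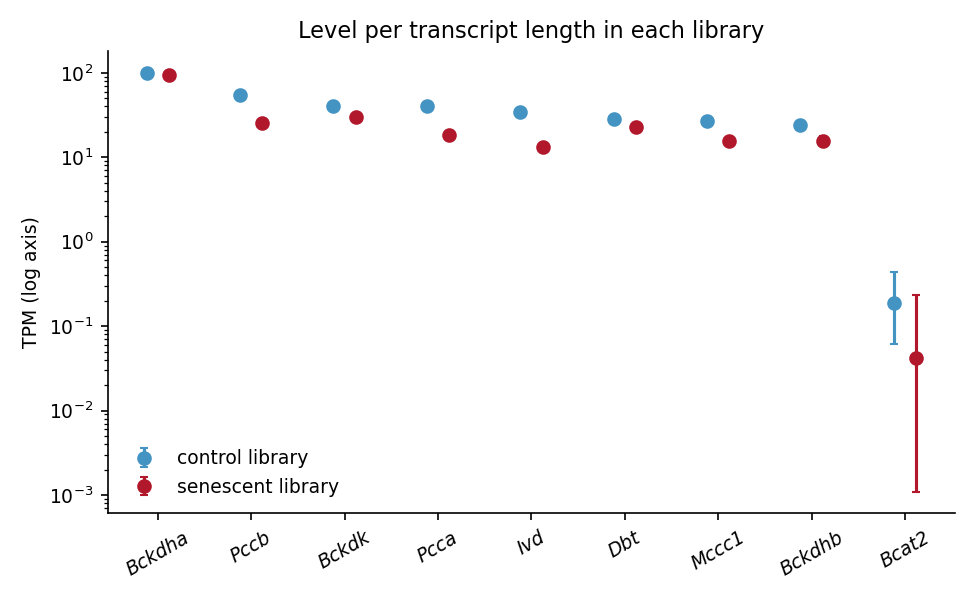
Level per transcript length in TPM (vertical log axis) of the 9 members with reads, in the control (blue) and senescent (red) library, with bars for the 95% counting interval, most of them smaller than the points. Bckdha is highest in both libraries, and Ivd, Pcca and Pccb show the widest gaps between the libraries among the 8 members tested.

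Entry of branched-chain amino acids into cells runs through transporters, which differed in direction. Slc7a5, the light chain of the large neutral amino acid exchanger LAT1, had 1182 control reads against 2487 senescent reads, and the log2 ratio was 1.30 (1.20 to 1.40). Its heavy chain Slc3a2 was counted at 15903 and 27058 reads, for a log2 ratio of 1.00 (0.97 to 1.02). Slc43a2, the transporter LAT4, went the other way, with 2609 and 540 reads and a log2 ratio of -2.04 (-2.18 to -1.91). Slc25a44, the mitochondrial carrier of these amino acids, was near level at 0.16 (0.04 to 0.27). Of the 8 transporter genes listed, 5 were tested, with 4 intervals above 0 and 1 below, against 34.0% and 34.6% of all tested genes. Slc7a5, Slc3a2 and Slc25a44 did not pass 1.5 and were named after their values were seen.

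Regulators listed for the pathway differed in direction, with 3 of 7 intervals above 0 and 4 below, against 34.0% and 34.6% of all tested genes. Of the 7, 3 passed 1.5 downward, as did 5.60% of all tested genes, and none passed it upward. Atf4, of the amino acid stress response, was at 1.30 (1.25 to 1.35) and Myc at 1.20 (1.12 to 1.27), both named after their values were seen. Klf15, a transcription factor known to activate genes of branched-chain amino acid breakdown, had 1504 control reads against 418 senescent reads, and the log2 ratio was -1.62 (-1.78 to -1.46). The coactivator Ppargc1a had 105 and 16 reads and a ratio of -2.42 (-3.34 to -1.72). Mlxipl, a glucose-responsive factor that has been tied to Bckdk expression, was at -2.61 (-2.98 to -2.29). Whether these levels have a part in those of the enzymes was not tested.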

How the data were processed

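RNA of 3 samples was pooled per library. The authors deposited raw read counts per gene by Ensembl identifier, made with poly(A) selection and random-primed cDNA. The submitters' processing notes name CASAVA, STAR, DESeq2, edgeR and mm10 without roles; the counting tool, annotation and use of strand are not given in the sources used here. Columns were matched to groups by the initials of the sample titles. Symbols, positions and lengths came from GENCODE M21, in which 34490 of 35275 identifiers had a symbol.

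Counts were scaled by TMM (edgeR 4.0.16 in R 4.3.3, factors 1.04 and 0.964), with a prior count of 1 in proportion to library size. Intervals, ratios and plots used Python 3.11.15, numpy 2.4.6, pandas 2.3.3, scipy 1.17.1 and matplotlib 3.10.9, and shared sequence blastn 2.17.0 (at least 100 bases at 95% identity). A gene was tested with at least 10 reads. Intervals of a ratio between genes are normal approximations from the read counts, and PCR reads are not independent molecules. With 1 library per group no test was possible. Alternatives were total-count, upper-quartile and DESeq2 1.42.0 scaling, a minimum of 1 or 100 reads, prior counts of 0.125 and 5, thresholds of 1 and 2 and assumed coefficients of variation of 0.1 and 0.4. The length used for TPM was chosen after the data were seen. Members and lists were chosen with earlier results of these data known. Named were all members, any other listed pathway gene (a further gene of the pathway is not reported here), and from the lists of related enzymes, transporters and regulators genes past 1.5 on the log2 scale and partner subunits, with exceptions stated. Cell type, proliferation and senescence markers lay outside this rule and were named after their values were seen.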

Additional observations from a re-analysis of the deposited data

How the results depend on the processing

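No member passed 1.5 on the log2 scale under any scaling, minimum of reads, prior count or assumed variation tried. A threshold of 1 gave 3 lower members of the 8 tested in place of 0. It gave 2 of the 19 other pathway genes in place of 0, near the 9.98% of all tested genes. The median log2 ratio of the members tested ran from -0.77 (total counts) to -0.66 (a prior count of 5). Total counts shifted all ratios by -0.11 and gave 8 lower members by the interval alone, with Bckdha added, and 18 of 19 other pathway genes in place of 15. Of the other pathway genes, 2 were below -1 with TMM, 3 with upper-quartile or DESeq2 scaling and 4 with total counts. Variation between cultures could not be measured from 1 library per group. At an assumed coefficient of variation of 0.4 per library, without allowance for the pooling, the intervals of all 8 members tested held 0. The share of Bcat1 in both aminotransferases, which was planned, is not given. With 0 reads of Bcat1 and 5 control reads and 1 senescent read of Bcat2, it would rest on too few reads. No paired analysis was possible because each group had 1 library.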
